A study of Mus musculus with 2 samples.

Results

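The insulin-like growth factor (IGF) system was described in 10 genes: the ligands Igf1 and Igf2, the receptors Igf1r and Igf2r, and the binding proteins Igfbp2, Igfbp3, Igfbp4, Igfbp5, Igfbp6 and Igfbp7. They were taken by gene symbol from the feature lists of both libraries, where all 10 were present among 25827 genes. The rule itself uses no measured value, though the genes were proposed with earlier results of these data known. The measurements are messenger RNA counts of single cells from whole brains of adult mice, made with the 10x Genomics 3′ kit, in which each unique molecular identifier (UMI) marks 1 captured transcript near its 3′ end. A UMI count does not depend on transcript length, so levels of different genes are set side by side here. Counting can still differ between genes, for example where a gene shares its 3′ end with another. The sort aimed at mural cells and fibroblasts, endothelium, astrocytes, microglia and border-associated macrophages (BAMs), which live around vessels, in the meninges and in the choroid plexus. 1 library is labelled IL34LacZ/LacZ, with the LacZ allele of Il34 on both chromosomes, and 1 is labelled IL34LacZ/+, with the allele on 1 chromosome. Both groups carry the allele, and neither is wild type. The sources used here do not give the number, sex or exact age of the mice behind a library, nor whether mice were pooled.

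IGF1 and IGF2 are secreted hormones that act locally as well as through the blood, and both signal through the receptor tyrosine kinase IGF1R. IGF2R carries no kinase: it takes up IGF2 for breakdown and sorts lysosomal enzymes. The IGF binding proteins hold the ligands outside the cell and either keep them from the receptor or store and deliver them, and proteases that cleave the binding proteins free the ligand. In the brain, IGF1 is known as a trophic factor for neurons and myelin-forming cells, and the choroid plexus and meninges as sources of IGF2.

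The library labelled IL34LacZ/LacZ held 95505407 UMIs in 18858 barcodes, of which 9632 were kept as cells, and the library labelled IL34LacZ/+ held 87394167 UMIs in 17168 barcodes, of which 8220 were kept. They shared 103 barcodes, 26 of them kept in both. Cell classes were named here from clusters and marker genes, hence BAM-like and so on. The marker counts below use the same lists, so they follow in part from the naming. All 10 BAM, 10 endothelial and 10 mural markers were higher in their own class than in every other class of both libraries, and so were 9 of 10 microglial markers in IL34LacZ/LacZ and 10 of 10 in IL34LacZ/+. Of 10 fibroblast markers, 7 in IL34LacZ/LacZ and 3 in IL34LacZ/+ were highest in fibroblast-like cells, and none was at 0 there. Astrocyte-like cells numbered 15 in IL34LacZ/LacZ and 14 in IL34LacZ/+, too few to describe. Of 33 clusters, 4 stayed without a name. The cluster led by F3, Rspo3 and Ccn3 held 7.44% of IL34LacZ/LacZ and 7.38% of IL34LacZ/+ cells, and the other 3 held at most 2.38% each. Il34 itself did not part the libraries beyond counting error in mural-like cells, which held 111 CPM (88.6 to 137) in IL34LacZ/LacZ and 134 CPM (99.8 to 175) in IL34LacZ/+. The sources used here do not say which part of Il34 the LacZ allele replaces, and a 3′ tag outside that part would check nothing.

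Levels are UMIs per 1000000 UMIs of a cell class (CPM), with exact Poisson 95% intervals in brackets. Each ratio is IL34LacZ/LacZ over IL34LacZ/+ with an exact conditional binomial 95% interval. Each genotype has 1 library and so no replicate: no test was possible, and the intervals cover counting error only, not the spread between mice, sorts or libraries. A gene counts as measured in a class from 100 UMIs summed over the libraries, and as past 1.5-fold where its ratio is at least 1.5 or at most the inverse of that. Free RNA from other cells reaches every droplet. A carried-over level was therefore computed for each class. It sums the gene's level in each other source class, scaled by how much of that class's marker gene was counted here. Sources were named classes with a chosen marker gene and at least 50 cells in each library. Monocyte-like cells and the unnamed clusters, the one led by F3 among them, were not sources.

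Each gene had its own main cell class, and among named classes it was the same in both libraries for 9 of the 10 genes (the heat map of all levels). BAM-like cells held the most Igf1 and Igfbp4, endothelial-like cells the most Igf1r and Igfbp3, and mural-like cells the most Igf2r and Igfbp7. Fibroblast-like cells held the most Igfbp5 and Igfbp6, and choroid plexus epithelial-like cells the most Igfbp2. For Igf2, choroid plexus epithelial-like cells led in IL34LacZ/LacZ and fibroblast-like cells in IL34LacZ/+. The ligand Igf1 and the receptor Igf1r were highest in different classes.

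**Figure D1:**
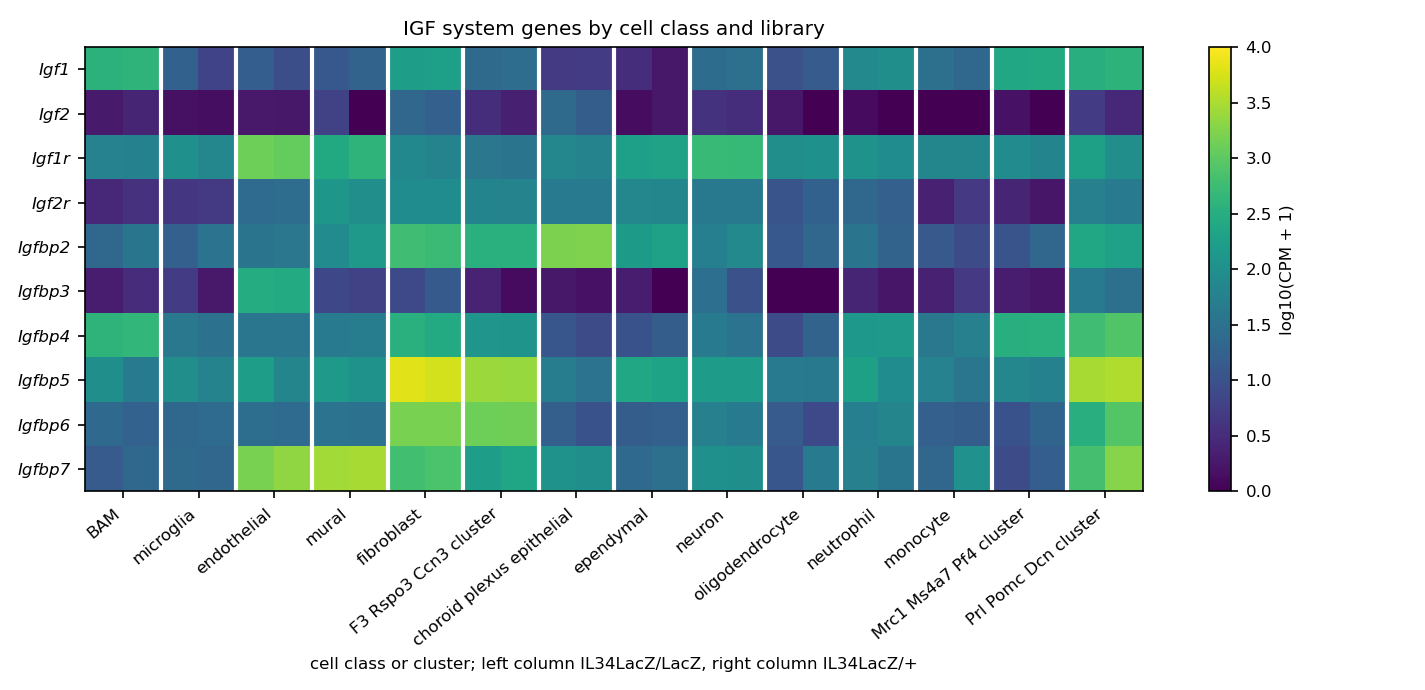
Level of the 10 genes (vertical axis) in 14 cell classes and unnamed clusters (horizontal axis), coloured by log10(CPM + 1), with IL34LacZ/LacZ in the left and IL34LacZ/+ in the right column of each pair. Igf1 is brightest in BAM-like cells, Igf1r and Igfbp3 in endothelial-like cells, Igfbp5 and Igfbp6 in fibroblast-like cells, Igfbp2 in choroid plexus epithelial-like cells and Igfbp7 in mural-like cells.

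Igf1 (chr10:87858265-87937042, plus strand, in GRCm38 by GENCODE vM21, as for the other genes) encodes the main ligand of IGF1R. BAM-like cells held 367 CPM (355 to 379.7) in IL34LacZ/LacZ and 398 CPM (384 to 412) in IL34LacZ/+, from 3450 and 3331 UMIs in the same order. A UMI was found in 1218 of 1883 IL34LacZ/LacZ BAM-like cells (64.7%, median 4000 UMIs per cell) and in 1255 of 1934 IL34LacZ/+ cells (64.9%, median 3557). Igf1 was thus spread over the class, and 496 IL34LacZ/LacZ and 489 IL34LacZ/+ cells held 3 or more UMIs. With every cell thinned to 1000 UMIs, 30.2% of IL34LacZ/LacZ and 30.6% of IL34LacZ/+ BAM-like cells kept a UMI. In ependymal-like cells, at medians of 9410 and 8721.5 UMIs, the unthinned shares were 2.62% and 0.769%, IL34LacZ/LacZ given before IL34LacZ/+. The cluster led by Prl, Pomc and Dcn, which mixes pituitary hormone and fibroblast transcripts, held 334 CPM (299.5 to 372) in IL34LacZ/LacZ and 378 CPM (327 to 435) in IL34LacZ/+, within the counting error of BAM-like cells in both libraries. Its carried-over level was 617 CPM in IL34LacZ/LacZ and 1581 CPM in IL34LacZ/+, or 82.8 CPM in IL34LacZ/LacZ and 268 CPM in IL34LacZ/+ with a second set of markers. Dcn, the fibroblast marker of the first set, is itself a leading gene of this cluster. The first level therefore cannot tell RNA carried over from the cluster's own. For Igfbp6 it was 5557 CPM in IL34LacZ/LacZ and 14026 CPM in IL34LacZ/+, far above the 338 and 850 CPM counted.

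Fibroblast-like cells were the other named class with high Igf1, at 171 CPM (162 to 181) in IL34LacZ/LacZ and 178 CPM (167 to 189) in IL34LacZ/+. Within it the cluster marked by Mfap4 held 228 CPM in IL34LacZ/LacZ and 217 CPM in IL34LacZ/+, the cluster marked by Krtdap and Myoc 107 CPM in IL34LacZ/LacZ and 117 CPM in IL34LacZ/+, and the cluster marked by Slc7a11 76.0 CPM in IL34LacZ/LacZ and 70.3 CPM in IL34LacZ/+. The order was the same in both libraries. The unnamed cluster led by Mrc1, Ms4a7 and Pf4 had the BAM list as its best marker list, followed by that of microglia. It held 242 CPM of Igf1 in IL34LacZ/LacZ and 267 CPM in IL34LacZ/+, above fibroblast-like cells. Its Igfbp4 level was 332 CPM in IL34LacZ/LacZ and 340 CPM in IL34LacZ/+. Microglia-like cells held far less than BAM-like cells, at 16.4 CPM (12.6 to 21.1) in IL34LacZ/LacZ and 5.49 CPM (2.92 to 9.38) in IL34LacZ/+. These are 61 and 13 UMIs, under the 100 needed to count as measured, and they lay in 40 of 1047 IL34LacZ/LacZ and 13 of 755 IL34LacZ/+ cells. Cells with 3 or more Igf1 UMIs numbered 5 in IL34LacZ/LacZ and 0 in IL34LacZ/+. The carried-over level was 7.01 CPM in IL34LacZ/LacZ and 6.69 CPM in IL34LacZ/+. In the main microglial cluster some genes chosen after values were seen also differed: H2-Aa (ratio 2.27, 1.53 to 3.46) and Cd74 (1.71, 1.44 to 2.04), of MHC class II presentation, were higher in IL34LacZ/LacZ, while the BAM markers Mrc1 (1.16, 0.928 to 1.47), Pf4 (0.967, 0.760 to 1.23) and Cd163 (1.01, 0.445 to 2.38) had intervals that include 1. A further BAM marker, Lyve1, was lower in IL34LacZ/LacZ (0.311, 0.131 to 0.689), on 10 UMIs in IL34LacZ/LacZ and 21 in IL34LacZ/+. Their part in the Igf1 count was not tested.

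Igf2 (chr7:142650766-142666816, minus strand), the ligand shared by IGF1R and IGF2R, was sparse. Choroid plexus epithelial-like cells held 22.7 CPM (19.4 to 26.5) in IL34LacZ/LacZ and 14.3 CPM (12.4 to 16.4) in IL34LacZ/+, from 165 and 195 UMIs. Fibroblast-like cells held 20.1 CPM (17.2 to 23.5) in IL34LacZ/LacZ and 15.9 CPM (12.7 to 19.7) in IL34LacZ/+, which overlaps the choroid plexus epithelial-like level in each library. Among fibroblast-like cells Igf2 was concentrated in the Slc7a11 cluster, at 74.1 CPM (58.4 to 92.6) in IL34LacZ/LacZ and 64.5 CPM (44.4 to 90.6) in IL34LacZ/+, while the Mfap4 cluster held 13.8 CPM in IL34LacZ/LacZ and 10.99 CPM in IL34LacZ/+. Igf1 and Igf2 were thus highest in different fibroblast-like clusters. Igf2 may be undercounted, because 62.8% of its exonic bases, and 1997 of the 2000 nearest its 3′ end, also belong to the gene Gm49394 on the same strand, which had 1 UMI over all classes described. The sources used here do not say how reads in both genes were treated. Antisense genes overlap Igf1 (Igf1os), Igf2 (Igf2os), Igf2r (Airn) and Igfbp7 (Polr2b and Gm34648), and the use of strand in counting is not stated either.

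Igf1r (chr7:67952827-68233668, plus strand), the signalling receptor, was above all an endothelial transcript. Endothelial-like cells held 1288 CPM (1256 to 1321) in IL34LacZ/LacZ and 1138 CPM (1109 to 1168) in IL34LacZ/+, with a UMI in 84.6% and 79.7% of cells. Neuron-like cells came next at 504 CPM (477 to 533) in IL34LacZ/LacZ and 479 CPM (441 to 518) in IL34LacZ/+. Along the vascular tree, both capillary clusters stood above the rest. The larger held 1407 CPM in IL34LacZ/LacZ and 1374 CPM in IL34LacZ/+, and the smaller 2667 CPM in IL34LacZ/LacZ and 2516 CPM in IL34LacZ/+. Venous cells held 637 CPM in IL34LacZ/LacZ and 471 CPM in IL34LacZ/+, and arterial cells 438 CPM in IL34LacZ/LacZ and 461 CPM in IL34LacZ/+. Fenestrated cells, the Plvap-marked endothelium of the choroid plexus and circumventricular organs, held the least, at 185 CPM in IL34LacZ/LacZ and 189 CPM in IL34LacZ/+.

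The capillary level also followed the depth of the cells (the plot of levels by UMIs per cell). In bins starting at 1000, 1500, 2500 and 5000 UMIs per cell, Igf1r stood at 2539.7, 1882, 1471 and 1280.2 CPM in IL34LacZ/LacZ and at 2161, 1789, 1385 and 1201 CPM in IL34LacZ/+. Cldn5, the tight junction gene used as endothelial marker, had 4498, 4011, 4203 and 4201 CPM in IL34LacZ/LacZ and 4249, 4325, 4649.9 and 4611 CPM in IL34LacZ/+, with no such order. The endothelial marker Flt1, a VEGF receptor gene, did show it, with 5186, 4854, 4428 and 4282 CPM in IL34LacZ/LacZ and 5110.4, 4679, 4621 and 4132 CPM in IL34LacZ/+. Igf1r was higher in IL34LacZ/LacZ than in IL34LacZ/+ in each bin, though only in the shallowest did the intervals not overlap. Median mitochondrial percentages of the bins ran from 4.55 to 5.87 in IL34LacZ/LacZ and from 4.77 to 6.05 in IL34LacZ/+, highest in the shallowest. The part of depth and RNA quality in the Igf1r level was not tested.

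**Figure D2:**
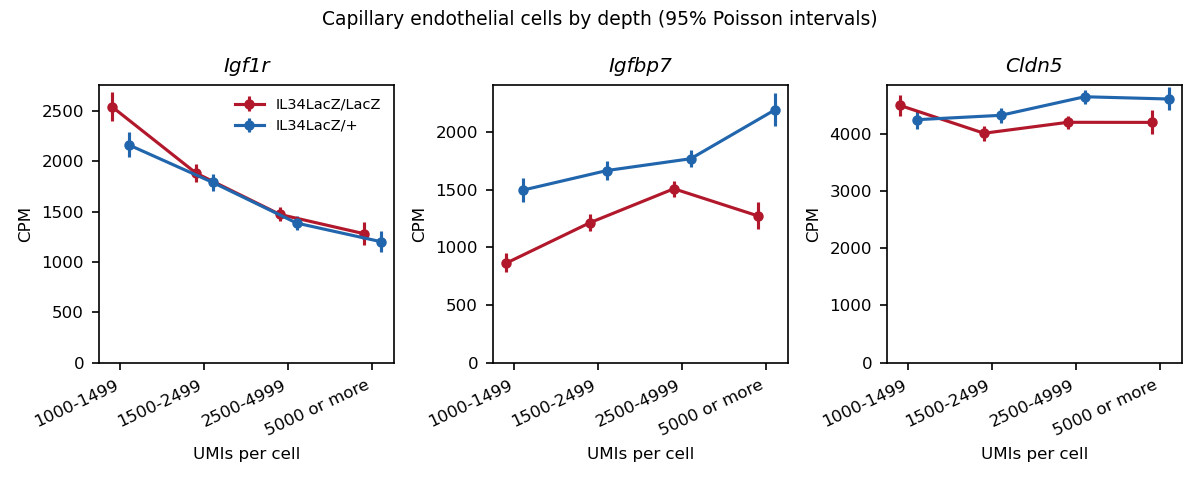
Level (CPM, linear axis from 0) of Igf1r, Igfbp7 and Cldn5 in capillary endothelial-like cells in 4 bins of UMIs per cell, with 95% Poisson intervals, IL34LacZ/LacZ in red and IL34LacZ/+ in blue. Igf1r is highest in the shallowest bin of both libraries, and Igfbp7 is lower in IL34LacZ/LacZ in all 4 bins.

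Mural-like cells held 267 CPM (232 to 306) in IL34LacZ/LacZ and 398 CPM (338 to 466) in IL34LacZ/+, a ratio of 0.669 (0.541 to 0.830), just within 1.5-fold. The carried-over level was 144 CPM in IL34LacZ/LacZ and 195 CPM in IL34LacZ/+, and 1 IL34LacZ/+ cell held 20% of the IL34LacZ/+ UMIs. Over both libraries, the pericyte-leaning mural subclusters held 209.8 and 209 CPM and the smooth muscle-leaning one 199.9 CPM. A subcluster of 44 cells that also scored for endothelial markers held 812 CPM. The cells richest in Igf1 had little receptor. BAM-like cells held 58.8 CPM in IL34LacZ/LacZ and 56.1 CPM in IL34LacZ/+, and the Mfap4 fibroblast-like cluster 31.9 CPM in IL34LacZ/LacZ and 23.7 CPM in IL34LacZ/+. Microglia-like cells held 100.3 CPM (90.4 to 111) in IL34LacZ/LacZ and 70.9 CPM (60.6 to 82.5) in IL34LacZ/+, a ratio of 1.42 (1.18 to 1.71), within 1.5-fold.

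Igf2r (chr17:12682406-12769664, minus strand), the uptake receptor, peaked in mural-like cells, which held 130.1 CPM (106 to 158) in IL34LacZ/LacZ and 95.1 CPM (67.0 to 131) in IL34LacZ/+. Fibroblast-like cells followed at 85.8 CPM (79.5 to 92.5) in IL34LacZ/LacZ and 87.1 CPM (79.3 to 95.4) in IL34LacZ/+. In IL34LacZ/+ the intervals of these classes overlap, in IL34LacZ/LacZ they do not. In IL34LacZ/+ the fibroblast-like level was the higher one among cells with 2000 or more UMIs and at a clustering resolution of 0.5. Ependymal-like cells held 69.0 CPM in IL34LacZ/LacZ and 66.8 CPM in IL34LacZ/+, and choroid plexus epithelial-like cells 45.9 CPM in IL34LacZ/LacZ and 43.8 CPM in IL34LacZ/+. Among endothelial-like cells Igf2r was highest where Igf1r was lowest: fenestrated cells held 71.2 CPM in IL34LacZ/LacZ and 80.7 CPM in IL34LacZ/+, and the larger capillary cluster 16.8 CPM in IL34LacZ/LacZ and 18.7 CPM in IL34LacZ/+. Both macrophage classes had next to none. BAM-like cells held 1.92 CPM in IL34LacZ/LacZ and 2.75 CPM in IL34LacZ/+ and microglia-like cells 3.23 CPM in IL34LacZ/LacZ and 3.80 CPM in IL34LacZ/+, beside carried-over levels of 2.28 to 2.89 CPM.

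**Figure D3:**
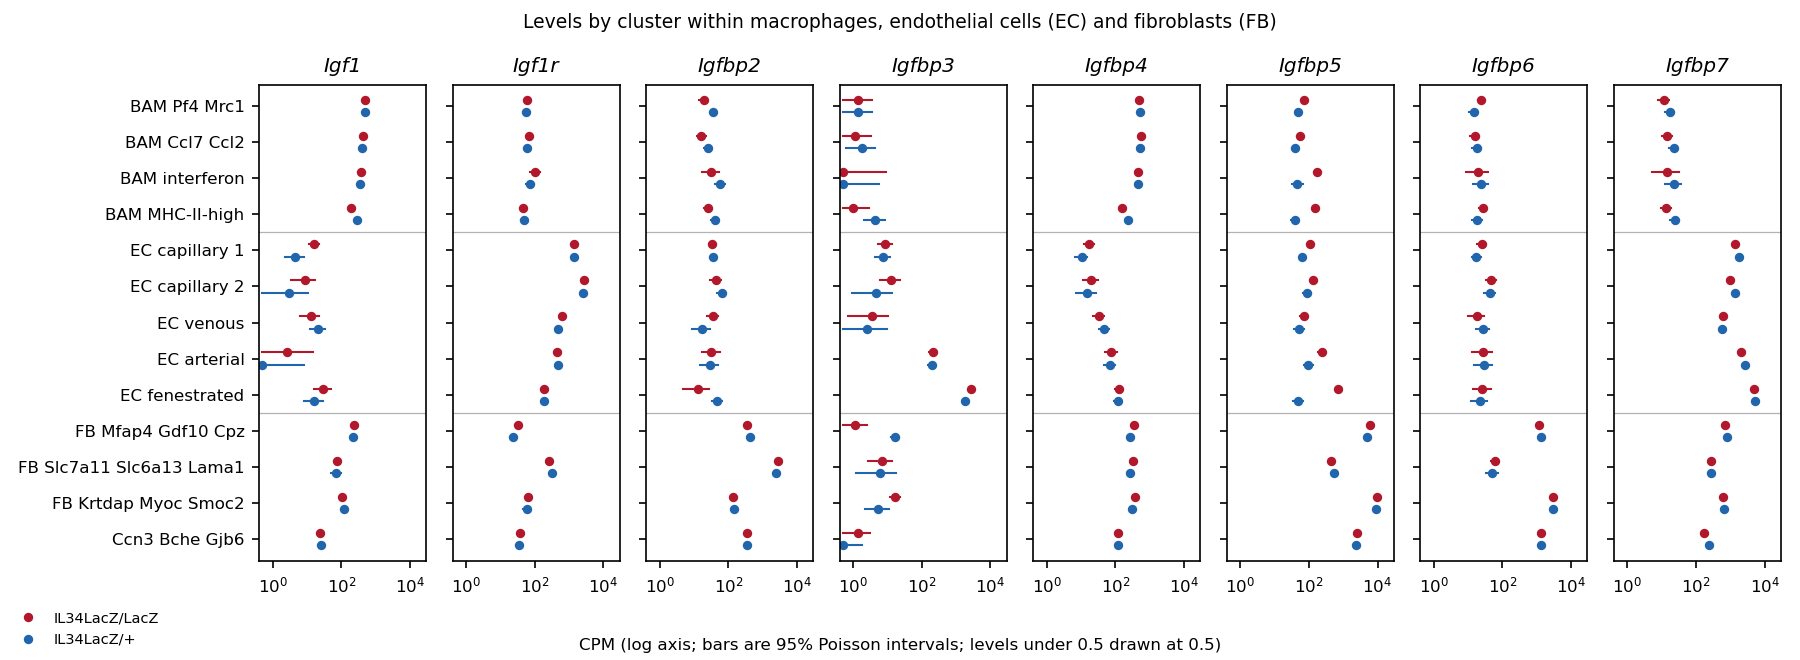
Level (CPM, log axis, drawn at 0.5 where lower) of 8 of the genes in clusters of BAM-like cells, endothelial-like cells (EC) and fibroblast-like cells (FB) and in the unnamed F3 cluster (bottom line, by its marker genes), with 95% Poisson intervals, IL34LacZ/LacZ in red above IL34LacZ/+ in blue. Igf1r is highest in the capillary and Igfbp3 in the fenestrated endothelial clusters, and Igf1 and Igfbp4 are lower in MHC-II-high than in other BAM-like clusters.

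Igfbp2 (chr1:72824503-72852474, plus strand), a secreted binding protein of both ligands, was the binding protein of choroid plexus epithelial-like cells. They held 1653 CPM (1624 to 1683) in IL34LacZ/LacZ and 1679.8 CPM (1658 to 1702) in IL34LacZ/+. Of the UMIs of the 6 binding proteins in that class, 90.1% in IL34LacZ/LacZ and 92.0% in IL34LacZ/+ were Igfbp2. Fibroblast-like cells held 601 CPM (584 to 618) in IL34LacZ/LacZ and 537 CPM (518 to 558) in IL34LacZ/+. The Slc7a11 cluster, which also held the most Igf2, stood at 2790.2 CPM in IL34LacZ/LacZ and 2378 CPM in IL34LacZ/+, and the Krtdap cluster at 139.6 CPM in IL34LacZ/LacZ and 142 CPM in IL34LacZ/+. Igfbp2 and Igf2 thus had the same leading classes. Over the 28 class and library units, which share 2 libraries with their depth and free RNA, Pearson's r of their log2(CPM + 10) was 0.79.

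Igfbp3 (chr11:7206086-7213923, minus strand), the main IGF carrier of blood serum, was high in fenestrated and arterial endothelial-like cells. Fenestrated cells held 2760.2 CPM (2611 to 2916) in IL34LacZ/LacZ and 1865 CPM (1764 to 1969) in IL34LacZ/+, a ratio of 1.48 (1.37 to 1.60), within 1.5-fold. A UMI was found in 81.6% of the 141 IL34LacZ/LacZ and 82.6% of the 213 IL34LacZ/+ fenestrated cells. Arterial cells held 205 CPM in IL34LacZ/LacZ and 193 CPM in IL34LacZ/+, and the capillary and venous clusters at most 12.2 CPM in either library. Outside endothelial-like cells the highest level was 43.6 CPM in IL34LacZ/LacZ and 28.6 CPM in IL34LacZ/+, in the cluster led by Prl, Pomc and Dcn. Igfbp3 was left out of the genes that made the clusters.

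Igfbp4 (chr11:99041244-99054392, plus strand), a binding protein that holds IGF1 back until the protease PAPP-A cleaves it, was the binding protein of BAM-like cells. They held 395 CPM (382 to 408) in IL34LacZ/LacZ and 445 CPM (431 to 459.7) in IL34LacZ/+, or 72.0% and 79.0% of their binding protein UMIs. Fibroblast-like cells held 345 CPM (333 to 358) in IL34LacZ/LacZ and 274 CPM (260.4 to 289) in IL34LacZ/+. The cluster led by Prl, Pomc and Dcn held 601 CPM in IL34LacZ/LacZ and 817 CPM in IL34LacZ/+, beside a carried-over level of 1229 CPM in IL34LacZ/LacZ and 2439 CPM in IL34LacZ/+. As for Igf1, that level cannot tell RNA carried over from the cluster's own. Over the 28 units, Igf1 had the pattern most like that of Igfbp4, and Igfbp4 the one most like Igf1, with an r of 0.96. On log2(CPM + 1) S1pr2 and Igf1 were level at the head for Igfbp4 (both 0.94). In single BAM-like cells thinned to 1000 UMIs, both genes were found in 10.9% of IL34LacZ/LacZ cells (9.52 to 12.4) and 10.9% of IL34LacZ/+ cells (9.51 to 12.3). The product of their shares was 9.42% in IL34LacZ/LacZ and 9.83% in IL34LacZ/+, so within the class they were found together little more often than their shares give.

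Igfbp5 (chr1:72857932-72874884, minus strand), which also binds extracellular matrix, reached the highest level of the 10 genes by UMI count. Fibroblast-like cells held 6558 CPM (6502 to 6614) in IL34LacZ/LacZ and 5379 CPM (5316 to 5442) in IL34LacZ/+, a ratio of 1.22 (1.202 to 1.24). The cluster led by Prl, Pomc and Dcn held 2993 CPM in IL34LacZ/LacZ and 3293 CPM in IL34LacZ/+. The unnamed F3 cluster, whose best marker list was that of fibroblasts, held 2511 CPM (2464 to 2558) in IL34LacZ/LacZ and 2404 CPM (2350.0 to 2459) in IL34LacZ/+. The Krtdap cluster was the strongest fibroblast-like source, at 9898 CPM in IL34LacZ/LacZ and 8853 CPM in IL34LacZ/+, and the Slc7a11 cluster the weakest, at 428 CPM in IL34LacZ/LacZ and 541 CPM in IL34LacZ/+. Igfbp6 (chr15:102144362-102149511, plus strand), which prefers IGF2 as its ligand, followed the same cells at a lower level. Fibroblast-like cells held 1588 CPM (1560.3 to 1616) in IL34LacZ/LacZ and 1581 CPM (1548 to 1616) in IL34LacZ/+, and the F3 cluster 1314 CPM (1280.0 to 1348) in IL34LacZ/LacZ and 1345 CPM (1304 to 1386) in IL34LacZ/+. The Krtdap cluster held 2984 CPM in IL34LacZ/LacZ and 2942 CPM in IL34LacZ/+, and the Slc7a11 cluster 59.6 CPM in IL34LacZ/LacZ and 50.8 CPM in IL34LacZ/+.

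Igfbp2 and Igfbp5 are neighbours on chromosome 1 but were high in different fibroblast-like cells. In cells thinned to 1000 UMIs, Igfbp5 and Igfbp6 were found together in 45.1% of IL34LacZ/LacZ and 48.5% of IL34LacZ/+ fibroblast-like cells, above the product of their shares of 35.5% in IL34LacZ/LacZ and 41.2% in IL34LacZ/+. Igfbp2 and Igfbp5 were found together in 15.98% of IL34LacZ/LacZ and 16.8% of IL34LacZ/+ cells, below their products of 25.9% in IL34LacZ/LacZ and 24.2% in IL34LacZ/+. Over the 28 units Igfbp5 and Igfbp6 had an r of 0.95, and Igfbp2 and Igfbp5 one of 0.54.

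The 250 bases before the RefSeq starts of Igfbp5 and Igfbp6, whose levels moved together over cell types, are shown from the RefSeq table for GRCm38.p6 at chr1:72874866-72875115 (minus strand) and chr15:102143936-102144185 (plus strand). They stand beside those of Igfbp3 and Igfbp7, both high in fenestrated endothelium, at chr11:7213924-7214173 and chr5:77408046-77408295 (both minus strand). Capitals mark matches on either strand to the TATA box (searched as TATAAA), the GC box (searched as GGGCGG) and the CCAAT box (searched as CCAAT), which do not overlap in these windows.
Igfbp5: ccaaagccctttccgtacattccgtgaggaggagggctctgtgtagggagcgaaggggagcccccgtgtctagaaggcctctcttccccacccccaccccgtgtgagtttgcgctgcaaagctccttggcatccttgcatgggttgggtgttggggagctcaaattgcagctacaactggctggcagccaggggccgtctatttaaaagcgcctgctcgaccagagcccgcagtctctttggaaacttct
Igfbp6: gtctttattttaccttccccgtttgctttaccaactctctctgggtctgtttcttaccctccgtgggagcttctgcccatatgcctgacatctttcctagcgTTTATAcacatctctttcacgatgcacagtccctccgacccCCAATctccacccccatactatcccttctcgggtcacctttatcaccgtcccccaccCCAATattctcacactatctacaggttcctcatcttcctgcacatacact
Igfbp3: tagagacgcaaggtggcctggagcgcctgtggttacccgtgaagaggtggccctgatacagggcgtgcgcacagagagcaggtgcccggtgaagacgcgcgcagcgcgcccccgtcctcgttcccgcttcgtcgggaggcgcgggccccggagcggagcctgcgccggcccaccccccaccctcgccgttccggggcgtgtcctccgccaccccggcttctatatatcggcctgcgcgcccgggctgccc
Igfbp7: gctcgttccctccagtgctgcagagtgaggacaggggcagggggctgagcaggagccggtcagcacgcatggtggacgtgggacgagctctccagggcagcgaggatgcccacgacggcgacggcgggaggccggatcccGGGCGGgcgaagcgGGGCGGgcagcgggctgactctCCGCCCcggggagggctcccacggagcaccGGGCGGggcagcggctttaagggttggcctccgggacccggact
The Igfbp7 window held 4 GC boxes, and the Igfbp6 window 1 TATA box, on the opposite strand, and 2 CCAAT boxes. The letters of these motifs were not in the Igfbp5 and Igfbp3 windows, so the pair whose levels moved together shared none of them. Of 32851 windows of this length, 12.4% hold the TATA box, 32.7% the GC box and 33.8% the CCAAT box. The GC content was 58.8% for Igfbp5, 49.6% for Igfbp6, 73.2% for Igfbp3 and 74.0% for Igfbp7, against a median of 52.4% over all windows. Of the Igfbp5 window, 19 bases are annotated as exon.

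Igfbp7 (chr5:77349240-77408041, minus strand), a vascular matrix protein with weak affinity for IGFs, was the binding protein of vessels. Mural-like cells held 2741 CPM (2626 to 2860.4) in IL34LacZ/LacZ and 3028 CPM (2857 to 3206) in IL34LacZ/+, which made up 89.8% and 90.1% of their binding protein UMIs. Endothelial-like cells held 1572 CPM (1536 to 1608) in IL34LacZ/LacZ and 2145 CPM (2105 to 2186) in IL34LacZ/+, a ratio of 0.733 (0.711 to 0.755), within 1.5-fold. Lower levels in IL34LacZ/LacZ were seen in the larger capillary cluster, at 1399 CPM in IL34LacZ/LacZ and 1839.9 CPM in IL34LacZ/+, in the smaller one, at 968 CPM in IL34LacZ/LacZ and 1411 CPM in IL34LacZ/+, and in arterial cells, at 2007 CPM in IL34LacZ/LacZ and 2638 CPM in IL34LacZ/+. Venous cells held 596 CPM in IL34LacZ/LacZ and 580.0 CPM in IL34LacZ/+, a ratio of 1.03 (0.904 to 1.17), and fenestrated cells, the strongest endothelial source, 4902 CPM in IL34LacZ/LacZ and 5333 CPM in IL34LacZ/+. In the 4 depth bins of capillary cells Igfbp7 stood at 862, 1213, 1507 and 1272 CPM in IL34LacZ/LacZ and at 1495, 1665, 1768 and 2189.8 CPM in IL34LacZ/+, with no overlap of intervals in any bin. The carried-over level in endothelial-like cells was 38.5 CPM in IL34LacZ/LacZ and 33.9 CPM in IL34LacZ/+, or 173 CPM in IL34LacZ/LacZ and 248 CPM in IL34LacZ/+ with the second markers.

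Between the libraries, 37 of the 50 pairs of a gene and 1 of 5 sorted classes were measured, and 28 of them lay within 1.5-fold. The median ratio of the 37 was 1.05. In IL34LacZ/LacZ, 4 pairs were higher: Igfbp5 in BAM-like (ratio 2.23, 1.97 to 2.53), endothelial-like (2.67, 2.35 to 3.04) and microglia-like cells (1.56, 1.28 to 1.91), and Igf1 in endothelial-like cells (1.80, 1.203 to 2.74). In IL34LacZ/LacZ, 5 pairs were lower: Igfbp2 in BAM-like (0.6002, 0.499 to 0.721), microglia-like (0.486, 0.340 to 0.694) and mural-like cells (0.613, 0.421 to 0.895), Igfbp7 in BAM-like cells (0.630, 0.496 to 0.798) and Igfbp3 in fibroblast-like cells (0.531, 0.363 to 0.774). None of these 9 pairs joined a gene with its leading class (the plot of ratios by class).

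**Figure D4:**
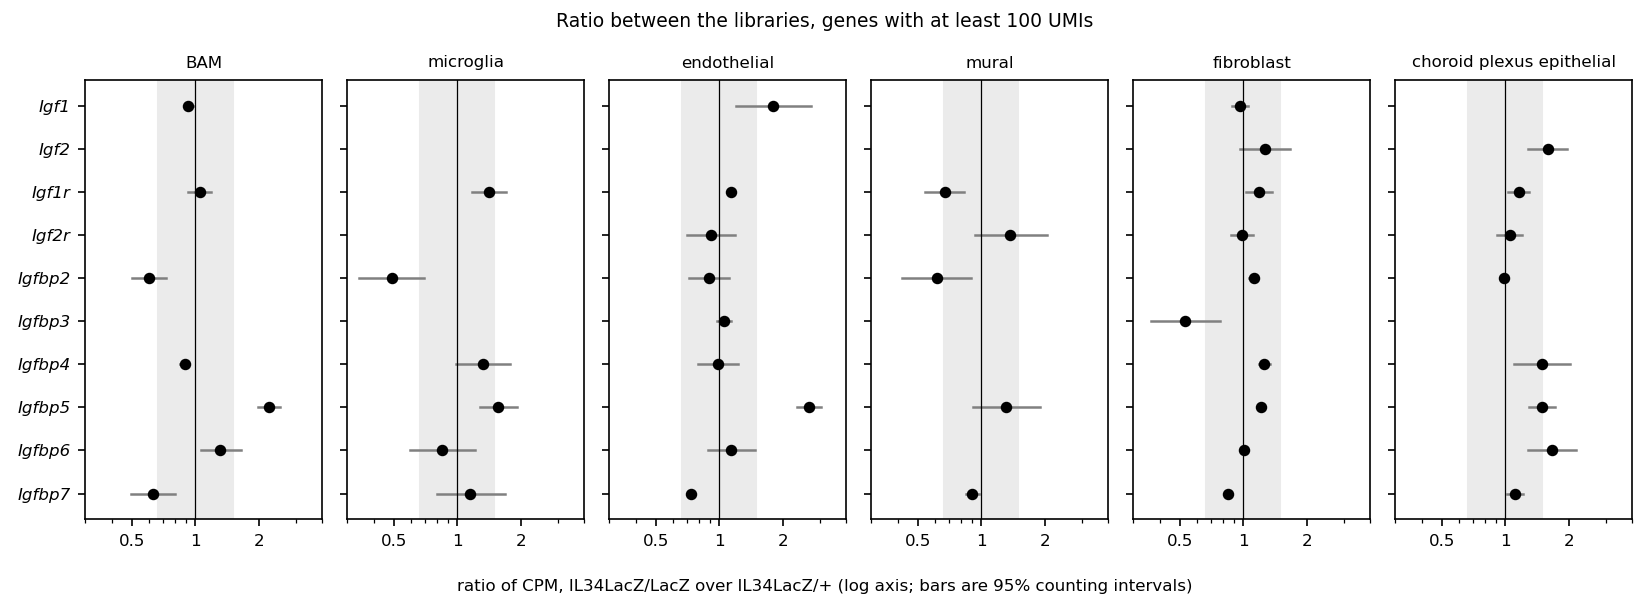
Ratio of IL34LacZ/LacZ over IL34LacZ/+ (log axis) for each gene measured in 6 classes, with 95% counting intervals and a grey band within 1.5-fold. Most points lie in the band, Igfbp5 lies to its right in BAM-like, endothelial-like and microglia-like cells, and Igfbp2 to its left in BAM-like, microglia-like and mural-like cells.

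By class, 1 of 7 measured genes was higher and 2 were lower in BAM-like cells, where 2.24% of all measured genes were past 1.5-fold higher and 1.14% lower. In endothelial-like cells 2 of 9 were higher and none lower, against 1.64% and 0.988% of all genes. In fibroblast-like cells none of 10 was higher and 1 was lower, against 1.8% and 0.917%. In microglia-like cells 1 of 6 was higher and 1 lower, against 2.21% and 0.859%, and in mural-like cells none of 5 was higher and 1 was lower, against 4.23% and 3.62%. Choroid plexus epithelial-like cells, which the sort did not aim at, had 2 of 8 genes higher and none lower, against 3.3% and 0.307%. These were Igf2 (1.59, 1.29 to 1.97), whose carried-over level was under 1 CPM in both libraries, and Igfbp6 (1.67, 1.28 to 2.17), which lay below 1 with called doublets kept (-0.0681 on the log2 scale). Igf2 was past 1.5-fold in 12 of 14 alternatives, but not at a mitochondrial limit of 20% or with equal weight per cell (1.30). Igfbp6 stood at 15.2 CPM in IL34LacZ/LacZ and 9.08 CPM in IL34LacZ/+, beside a carried-over 7.68 CPM in IL34LacZ/LacZ and 7.01 CPM in IL34LacZ/+, or 23.2 CPM in IL34LacZ/LacZ and 20.5 CPM in IL34LacZ/+ with the second markers. The median ratio in that class was 1.33 over the 8 genes and 1.06 over all genes measured. In neutrophil-like cells 3 of 7 genes were higher, against 3.26% of all genes: Igfbp2, Igfbp5 and Igfbp7. Igfbp5 there was at 188 CPM in IL34LacZ/LacZ and 86.2 CPM in IL34LacZ/+ (ratio 2.18, 1.79 to 2.67). Its carried-over level was 202 CPM in IL34LacZ/LacZ and 135 CPM in IL34LacZ/+. A single cell held 36.1% of the IL34LacZ/LacZ UMIs. In the cluster led by Prl, Pomc and Dcn 1 of 7 was higher and 2 were lower, against 8.5% and 11.8%.

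Most of the 9 pairs stood near the carried-over level. Igfbp2 in BAM-like cells was at 21.1 CPM in IL34LacZ/LacZ and 35.1 CPM in IL34LacZ/+, beside a carried-over 22.1 CPM in IL34LacZ/LacZ and 39.2 CPM in IL34LacZ/+. In microglia-like cells it was at 15.6 CPM in IL34LacZ/LacZ and 32.1 CPM in IL34LacZ/+, beside 20.1 CPM in IL34LacZ/LacZ and 33.3 CPM in IL34LacZ/+. Choroid plexus epithelial-like cells, the main source of Igfbp2, made up 4.74% of IL34LacZ/LacZ and 10.6% of IL34LacZ/+ cells, and their part in these differences was not tested. In mural-like cells 1 cell held 42.6% of the IL34LacZ/+ Igfbp2 UMIs, and with equal weight per cell the log2 ratio was 0.21, above 0. In fibroblast-like cells 1 cell held 81.8% of the IL34LacZ/+ Igfbp3 UMIs, and the direction turned with equal weight per cell (log2 ratio 0.71) and per cluster (0.54). Without the richest cell of each library Igfbp3 was at 5.51 CPM (44 UMIs) in IL34LacZ/LacZ and 2.27 CPM (12 UMIs) in IL34LacZ/+ there. Igfbp7 in BAM-like cells, at 13.1 CPM in IL34LacZ/LacZ and 20.8 CPM in IL34LacZ/+, lay below its carried-over level of 27.6 CPM in IL34LacZ/LacZ and 33.5 CPM in IL34LacZ/+. Igf1 in endothelial-like cells was at 14.4 CPM in IL34LacZ/LacZ and 8.0 CPM in IL34LacZ/+, beside 12.1 CPM in IL34LacZ/LacZ and 5.89 CPM in IL34LacZ/+.

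Igfbp5 had a ratio above 1 in all 5 classes, mural-like cells (1.31, 0.911 to 1.90) and fibroblast-like cells included. In BAM-like cells it was at 96.0 CPM in IL34LacZ/LacZ and 43.0 CPM in IL34LacZ/+. The carried-over level there was 73.9 CPM in IL34LacZ/LacZ and 65.1 CPM in IL34LacZ/+. With the second markers it was 86.5 CPM in IL34LacZ/LacZ and 45.4 CPM in IL34LacZ/+, so that it parted the libraries. A single IL34LacZ/LacZ BAM-like cell held 19.3% of the IL34LacZ/LacZ Igfbp5 UMIs. In microglia-like cells Igfbp5 was at 92.8 CPM in IL34LacZ/LacZ and 59.5 CPM in IL34LacZ/+. Its carried-over level there was 54.1 CPM in IL34LacZ/LacZ and 49.3 CPM in IL34LacZ/+. The second markers gave 75.3 CPM in IL34LacZ/LacZ and 59.8 CPM in IL34LacZ/+. Fibroblast-like cells, its main source, made up 11.9% of IL34LacZ/LacZ and 9.94% of IL34LacZ/+ cells, and their part in the Igfbp5 of other classes was not tested. In endothelial-like cells it was at 176 CPM in IL34LacZ/LacZ and 66.0 CPM in IL34LacZ/+, beside 173 CPM in IL34LacZ/LacZ and 74.9 CPM in IL34LacZ/+, or 112 CPM in IL34LacZ/LacZ and 85.2 CPM in IL34LacZ/+ with the second markers, so that the carried-over level also parted the libraries. Among the 37 pairs the ratio of Igfbp5 in endothelial-like cells was furthest from 1, and of the 5 endothelial clusters the fenestrated one had the highest.

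In fenestrated endothelial-like cells Igfbp5 stood at 722 CPM (647 to 804) in IL34LacZ/LacZ and 49.0 CPM (33.9 to 68.5) in IL34LacZ/+, from 335 and 34 UMIs, a ratio of 14.7 (10.3 to 21.7). It was the only 1 of 5 genes measured there past 1.5-fold, where 3.04% of all measured genes were past it in that direction. The UMIs were not spread evenly. In IL34LacZ/LacZ, 22 of 141 cells (15.6%, exact 95% interval 10.0 to 22.7) held 3 or more Igfbp5 UMIs, up to 48, and 89.9% of all. In IL34LacZ/+, 2 of 213 cells did (0.939%, 0.114 to 3.35), with at most 4 UMIs. The limit of 3 UMIs was set after the values were seen. Most of the UMIs behind the difference between the libraries were thus in a small number of Igfbp5-rich cells (the plot of Igfbp5 UMIs per cell). The remaining cells, chosen for low Igfbp5, held 87.2 CPM in IL34LacZ/LacZ, from 34 UMIs in 119 cells, and 39.2 CPM in IL34LacZ/+, from 27 UMIs in 211 cells.

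**Figure D5:**
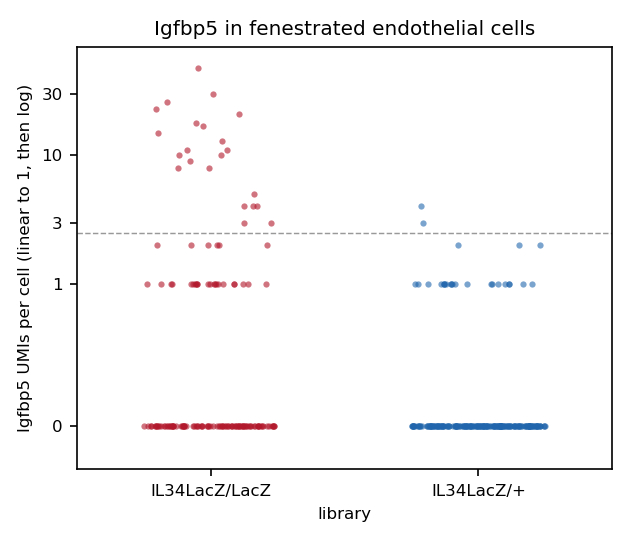
Igfbp5 UMIs in each fenestrated endothelial-like cell (axis linear to 1, then log), IL34LacZ/LacZ left of IL34LacZ/+, with a dashed line between 2 and 3 UMIs. Above the line lie 22 of 141 IL34LacZ/LacZ cells, up to 48 UMIs, and 2 of 213 IL34LacZ/+ cells.

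The 24 Igfbp5-rich cells (22 IL34LacZ/LacZ, 2 IL34LacZ/+; median 2594 UMIs) were set beside the other 330 of the cluster (median 2784.5 UMIs). The genes given were chosen after values were seen, and this is a description. Plvap, the diaphragm protein gene of fenestrae, stood at 3612 and 2606 CPM, and Igfbp3 at 5438 and 1988 CPM, the 24 cells given before the 330. The venous transcription factor gene Nr2f2 was at 342 and 49.1 CPM, found in 16 and 37 cells. The homeobox gene Meis2 (1737 and 58.4 CPM) and the fatty acid carrier gene Fabp4 (938 and 129.8 CPM) were higher in the 24 as well. So was Mgp (2320 and 545 CPM), a gene of both the arterial and the fibroblast marker lists. Lower in them were Igfbp7 (1889 and 5399 CPM), Plpp1 (1914 and 2626 CPM), Cd24a (355 and 1539.6 CPM) and the endothelial proteoglycan gene Esm1 (583 and 971 CPM). Plpp1, Cd24a and Esm1 are on the fenestrated marker list together with Plvap, so genes of that list went both ways. Since 22 of the 24 but only 119 of the 330 are IL34LacZ/LacZ cells, library and Igfbp5 level are mixed in these values. Within IL34LacZ/LacZ, the 22 and the 119 cells held 1839 and 126 CPM of Meis2, 1001 and 187 CPM of Fabp4, 365 and 48.7 CPM of Nr2f2, 5748 and 2193 CPM of Igfbp3 and 1799 and 5490.1 CPM of Igfbp7. The 211 other IL34LacZ/+ cells held 20.3 CPM of Meis2 and 97.2 CPM of Fabp4. Without the 24, Igfbp3 in the cluster was 2193 CPM in IL34LacZ/LacZ and 1872 CPM in IL34LacZ/+.

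Transcripts of other cell types were present in a few of the 24. Dcn was found in 3 of them (70 UMIs), Col1a2 in 7 and the pituitary hormone gene Prl in 2 (419 UMIs). Those with Dcn or Prl were all IL34LacZ/LacZ cells. Of the other cells in the cluster, 10 of 119 in IL34LacZ/LacZ and 0 of 211 in IL34LacZ/+ held Prl. Dcn was found in 5 of these 119 and 10 of these 211 cells. The carried-over level of Igfbp5 in the cluster was 424 CPM in IL34LacZ/LacZ and 55.3 CPM in IL34LacZ/+, or 165 CPM in IL34LacZ/LacZ and 83.4 CPM in IL34LacZ/+ with the second markers. Without any cell holding a UMI of Dcn, Col1a2, Col3a1 or Prl, Igfbp5 was 642 CPM in IL34LacZ/LacZ and 43.5 CPM in IL34LacZ/+, a ratio of 14.8 (9.74 to 23.3). Without the 5 richest cells of each library the ratio was 13.5 (8.57 to 22.3). This leaves most of the 22 Igfbp5-rich IL34LacZ/LacZ cells in place but neither of the 2 in IL34LacZ/+. It therefore cannot show whether the rich cells carry the difference. The part of RNA from other cells, and of a different mix of cells within the cluster, in the Igfbp5 ratio was not tested. In the remaining endothelial clusters as a whole Igfbp5 was 117 CPM in IL34LacZ/LacZ and 68.7 CPM in IL34LacZ/+, a ratio of 1.70 (1.46 to 1.96). Among them arterial cells held 235 CPM in IL34LacZ/LacZ and 96.6 CPM in IL34LacZ/+, a ratio of 2.43 (1.67 to 3.58), the only 1 of 4 measured genes past 1.5-fold there, against 2.34% of all genes.

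BAM-like cells were not uniform. Igf1 was highest in the cluster led by Pf4 and Mrc1, at 488 CPM (463 to 513) in IL34LacZ/LacZ and 487 CPM (462 to 513) in IL34LacZ/+. The cluster led by the chemokine genes Ccl7 and Ccl2 held 434 CPM in IL34LacZ/LacZ and 401 CPM in IL34LacZ/+, and the interferon-marked cluster 370.3 CPM in IL34LacZ/LacZ and 347 CPM in IL34LacZ/+. Igfbp4 ran from 448 to 561 CPM in IL34LacZ/LacZ and from 457 to 532 CPM in IL34LacZ/+ over these 3 clusters. The ratios of both genes lay between 0.953 and 1.08 in them. The fourth main cluster, high in MHC class II genes, held less of both genes, and there both differed between the libraries.

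In MHC-II-high BAM-like cells Igf1 stood at 191 CPM (176 to 207) in IL34LacZ/LacZ and 291 CPM (268 to 315) in IL34LacZ/+, a ratio of 0.657 (0.586 to 0.737). Igfbp4 stood at 152 CPM (139 to 166) in IL34LacZ/LacZ and 225 CPM (205 to 247) in IL34LacZ/+, a ratio of 0.674 (0.592 to 0.767), just within 1.5-fold. An Igf1 UMI was found in 42.7% of the 490 IL34LacZ/LacZ cells (median 4716 UMIs) and 47.5% of the 358 IL34LacZ/+ cells (median 4456.5). Of 6 genes measured in this cluster 1 was higher and 2 were lower, against 3.19% and 1.39% of all genes. The others were Igfbp5 (ratio 3.77, 2.97 to 4.84), with 37.7% of its IL34LacZ/LacZ UMIs in 1 cell, and Igfbp2 (0.637, 0.461 to 0.879).

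BAM marker genes moved with Igf1 in the MHC-II-high cluster. The mannose receptor gene Mrc1 had a ratio of 0.690 (0.658 to 0.724), Pf4 one of 0.626 (0.5996 to 0.653), Cd163 one of 0.692 (0.6002 to 0.798) and the hyaluronan receptor gene Lyve1 one of 0.501 (0.435 to 0.575). The MHC class II genes H2-Aa (1.10, 1.08 to 1.13) and Cd74 (1.10, 1.09 to 1.12) and the monocyte receptor gene Ccr2 (1.21, 1.10 to 1.33) lay above 1. The interferon-marked cluster also differed in Lyve1 (0.548, 0.462 to 0.647), H2-Aa (0.519, 0.418 to 0.641) and Cd74 (0.659, 0.586 to 0.739). Its Igf1 ratio was 1.07 (0.865 to 1.32), so Lyve1 did not move with Igf1 there. Mrc1 lay above 1 in that cluster (1.11, 1.04 to 1.19) and Pf4 below (0.896, 0.842 to 0.954). The part of a different mix of cells within either cluster was not tested. The MHC-II-high cluster held 490 of 1883 IL34LacZ/LacZ and 358 of 1934 IL34LacZ/+ BAM-like cells. Over the whole class the ratio was 0.923 (0.880 to 0.968) for Igf1 and 0.887 (0.848 to 0.929) for Igfbp4.

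Of 54 other pathway genes listed, 53 were in the features, and 9 pairs of a gene and a sorted class were past 1.5-fold. In BAM-like cells 2 of 30 were higher and none lower, where 2.24% of all measured genes were higher and 1.14% lower. They were the secreted proteases Htra1, at 13.8 CPM in IL34LacZ/LacZ and 6.45 CPM in IL34LacZ/+ (ratio 2.15, 1.55 to 3.00), and Adamts1, at 22.1 CPM in IL34LacZ/LacZ and 10.99 CPM in IL34LacZ/+ (2.02, 1.57 to 2.60). Fibroblast-like cells held far more: 474 CPM of Htra1 and 331 CPM of Adamts1 in IL34LacZ/LacZ, and 527 and 256 CPM in IL34LacZ/+. No carried-over level was computed for these pathway genes, and the part of free RNA was not tested. In endothelial-like cells none of 36 was higher and 2 were lower, against 1.64% and 0.988% of all genes. Stc1, whose product inhibits PAPP-A, was at 8.91 CPM in IL34LacZ/LacZ and 18.0 CPM in IL34LacZ/+ (0.495, 0.335 to 0.722), and Socs3, a feedback inhibitor of cytokine signalling, at 32.9 CPM in IL34LacZ/LacZ and 50.4 CPM in IL34LacZ/+ (0.653, 0.531 to 0.800). In fibroblast-like cells none of 40 was higher and 5 were lower, against 1.8% and 0.917%. Pappa, which encodes PAPP-A, was at 24.8 CPM in IL34LacZ/LacZ and 41.6 CPM in IL34LacZ/+ (0.595, 0.489 to 0.724), and the secreted matrix protein gene Ccn1 at 156 CPM in IL34LacZ/LacZ and 363 CPM in IL34LacZ/+ (0.430, 0.400 to 0.462). Also lower were the RNA-binding protein gene Igf2bp3 (0.607, 0.440 to 0.835) and Esm1 (0.661, 0.471 to 0.927), each under 20 CPM. Endothelial-like cells held 93.4 CPM of Esm1 in IL34LacZ/LacZ and 132 CPM in IL34LacZ/+. Ccn1 was below 1 also in BAM-like (0.681, 0.638 to 0.727) and endothelial-like cells (0.752, 0.646 to 0.875), within 1.5-fold in both.

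None of 24 measured pathway genes in microglia-like cells and none of 8 in mural-like cells was past 1.5-fold, where 2.21% of all genes were higher and 0.859% lower in the first class and 4.23% and 3.62% in the second. The median ratio of these genes was 1.002 in BAM-like, 0.993 in endothelial-like, 0.982 in fibroblast-like, 1.04 in microglia-like cells and 1.07 in the mural-like class. Over all measured genes the medians of the same classes, in that order, were 1.02, 1.01, 1.01, 0.997 and 1.03. In choroid plexus epithelial-like cells 6 of 35 were higher and none lower, against 3.3% and 0.307% of all genes.

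The patterns of all genes over the 28 units were compared by Pearson's r of log2(CPM + 10), as a description, and the 3 genes most like each gene are given. Igf1 was most like Igfbp4, S1pr2 and C2 (r 0.96, 0.93 and 0.90), and Igfbp4 most like Igf1, S1pr2 and Tlcd2 (0.96, 0.95 and 0.90). Igf1r was most like Jag2, Colgalt2 and Ptprr (0.95, 0.93 and 0.93), and Igf2r most like Cbx5, Sesn3 and Nedd4 (0.96, 0.95 and 0.93). Igfbp2 was nearest to Sulf1, Fam160a1 and Ephx2 (0.95, 0.94 and 0.93), and Igfbp3 to Ramp3, Adamtsl2 and Gimap8 (0.97, 0.97 and 0.96). Igfbp5 was nearest to Pdgfrl, Osr1 and Scara3 (0.97, 0.96 and 0.96), Igfbp6 to Prrx2, Efemp1 and Col6a2 (0.99, 0.98 and 0.98), and Igfbp7 to Mxra7, Rhoj and Arhgap29 (0.95, 0.94 and 0.93). Igf2 was below the 50 CPM this comparison asked of a gene's highest class. Igf1 and Igfbp4 were the only 2 of the genes to be named for each other. With log2(CPM + 1) the gene most like Igf1r became Ptprr, like Igfbp5 and Igfbp6 Efemp1, like Igfbp4 S1pr2 and like Igfbp7 Epas1, and the leading genes of Igf1, Igf2r, Igfbp2 and Igfbp3 did not change.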

How the data were processed

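The deposited matrices hold whole-number UMI counts by gene and barcode, which come from the authors' run of Cell Ranger (version 5.0.0, per the file headers) against GRCm38.p6 (mm10, per the submitters' processing notes). Each barcode has at least 500 UMIs. The members and lists were chosen with earlier results of these data known.

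Barcodes stayed in with 1000 or more UMIs, 500 or more genes and no more than 10% mitochondrial UMIs. Scrublet, run on each library with 10% expected doublets, removed 1193 IL34LacZ/LacZ (6.33%) and 1073 IL34LacZ/+ (6.25%) barcodes. This left medians of 3679 UMIs per cell in IL34LacZ/LacZ and 3541 in IL34LacZ/+. Counts per cell were scaled to 10000 and logged. Leiden clustering (resolution 1) used 30 principal components and 20 neighbours from 2000 variable genes, less the 7 members among them, with no batch integration. A cluster was named where its best marker list had a mean log2 enrichment of at least 1, led the next list by 1, and had at least 3 markers up at least 2-fold and 1 among its 10 leading genes. The lead and the last condition were tightened after the data were seen. Classes of at least 50 cells in each library were described.

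UMIs were summed per class and library and divided by the class total. All 10 genes are described, in full where a class ranks first or second. Also named are the 3 genes most like each and the pathway genes past 1.5-fold in a sorted class, of which 1 is counted but not reported here. Calculations were tested on simulated data. The scaling, filters, clustering, weighting, thinning, fold and minimum UMIs were varied. Of 25827 feature IDs, 25651 (99.3%) were in GENCODE vM21, and all 10 genes had RefSeq promoter windows. Python 3.11.15 was used with matplotlib 3.10.9, igraph 0.11.9, leidenalg 0.10.2, scanpy 1.11.5, scikit-learn 1.9.0, numpy 2.4.6 and scipy 1.17.1.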

Additional observations from a re-analysis of the deposited data

Results flagged for a closer look

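Igfbp2, Igfbp6 and Igfbp7 went past 1.5-fold in opposite directions in different classes. Each genotype has 1 library, and the difference between classes was not tested.

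Igfbp2 was higher in IL34LacZ/LacZ neutrophil-like cells (ratio 1.87) and lower in IL34LacZ/LacZ BAM-like (0.6002), microglia-like (0.486) and mural-like cells (0.613). In neutrophil-like cells it stood at 33.5 CPM in IL34LacZ/LacZ and 18.0 CPM in IL34LacZ/+, below the carried-over level of 49.9 CPM in IL34LacZ/LacZ and 48.1 CPM in IL34LacZ/+, and 1 cell held 35.6% of the IL34LacZ/LacZ UMIs.

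Igfbp6 was higher in IL34LacZ/LacZ choroid plexus epithelial-like cells (1.67) and lower in the cluster led by Prl, Pomc and Dcn (0.398). Igfbp7 was higher in IL34LacZ/LacZ neutrophil-like cells (1.56), where 1 cell held 52.7% of the IL34LacZ/LacZ UMIs. It was lower in BAM-like cells (0.630) and in the cluster led by Prl, Pomc and Dcn (0.352), where 20.3% of all measured genes were past 1.5-fold in either direction.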

How the results depend on the processing

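Of 681 recomputed ratios, 588 stayed within counting error, 89 moved further, and 4 past 1.5-fold changed direction. The 4 log2 ratios were -0.0681 for Igfbp6 in choroid plexus epithelial-like cells with called doublets kept, 0.71 and 0.54 for Igfbp3 in fibroblast-like cells with equal weight per cell and per cluster, and 0.21 for Igfbp2 in mural-like cells with equal weight per cell. The 4 pairs higher in IL34LacZ/LacZ became 2 at a mitochondrial limit of 5%, 2 with cells thinned to 1000 UMIs and 2 at a fold of 2. The 5 lower pairs became 3 at a mitochondrial limit of 5%, 2 with doublets kept, 1 with equal weight per cell, 3 without the richest cell of each library, 0 with thinned cells, where fewer pairs reach 100 UMIs, and 1 at a fold of 2. For the other settings the cause was not tested. Igfbp5 in endothelial-like cells was past 1.5-fold in 16 of 16 alternatives (2.28 to 4.34), Igfbp2 in microglia-like cells in 15 of 15 (0.479 to 0.576) and Igfbp5 in BAM-like cells in 14 of 16 (1.46 to 2.60). The leading class of Igf2 changed between choroid plexus epithelial-like and fibroblast-like cells in 4 settings in IL34LacZ/LacZ and 3 in IL34LacZ/+. At a mitochondrial limit of 5%, Igfbp4 was highest in fibroblast-like cells in IL34LacZ/LacZ, and mural-like cells, under 50 there, were left out, so that fibroblast-like cells led for Igf2r and endothelial-like cells for Igfbp7. Igf2r was highest in fibroblast-like cells in IL34LacZ/+ also with at least 2000 UMIs per cell and at resolution 0.5. Added after seeing the data were 4 alternatives. No paired analysis was possible because each genotype has 1 library. Low counts limit Igf2 and the pairs near the carried-over level.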
